A study of Mus musculus with 6 samples.

Results

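Malat1, Neat1, Meg3 and Kcnq1ot1 are long noncoding RNAs that act mainly in the nucleus, and their m6A peaks were taken from 3 peak lists of mouse brain RNA. A peak was assigned to an RNA when its summit lay in a fixed window of the mm9 genome: chr19:5795500-5803000 for Malat1, chr19:5824500-5846000 for Neat1, chr12:110778000-110810500 for Meg3 and chr7:150398000-150483000 for Kcnq1ot1. Of 90215 peaks in the 3 lists, 29 lay in these windows. Merging peaks that shared at least 1 base gave 16 regions of 43377 in all. Malat1 held 2 of them, Neat1 3, Meg3 11 and Kcnq1ot1 0.

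The lists came from m6A-seq, in which RNA fragments bound by an antibody against N6-methyladenosine (m6A) are sequenced beside input RNA. There were 3 immunoprecipitated libraries (m6A IP 1, 2 and 3) and 3 input libraries, all of polyadenylated RNA taken from whole brains of mice, and each IP was set against 1 input. The labels give no genotype, strain, age or treatment, and all libraries were of 1 tissue, so the comparisons are between replicates, between the RNAs and with the rest of the lists. The depth after the authors' removal of duplicates was 5676427 tags for m6A IP 1, 6493926 for m6A IP 2 and 6327958 for m6A IP 3, with 7436658, 11589632 and 7185922 tags in the matching inputs. Before it, the IP libraries had 16764956, 18489297 and 17333767 tags and the inputs 21820721, 36372297 and 21529770, so most tags were removed. Input was scaled to the IP by 0.763, 0.560 and 0.881. The lists hold peaks without gene names or expression levels, so the tissue label was not checked against marker genes.

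As background, m6A is placed on nascent RNA by a nuclear writer complex built on METTL3 and METTL14, mostly at an adenosine inside a short motif of which GGACT is the best known form, and reader proteins such as YTHDC1 bind it in the nucleus. Malat1 is an abundant RNA of nuclear speckles. Neat1 is the scaffold of paraspeckles and is made as a short and a long form that share their 5′ part. Meg3 is transcribed from the maternal chromosome at the imprinted Dlk1-Dio3 locus and is strong in neurons. Kcnq1ot1 is an unspliced antisense RNA, transcribed from the paternal chromosome, that silences neighbouring imprinted genes.

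All 4 RNAs carry the GGACT motif, and the sequences below show it in each. They are read from the longest GENCODE release M21 transcript (GRCm38), on which 2 of the RNAs, Malat1 and Kcnq1ot1, and the long form of Neat1 are annotated as 1 exon and that of Meg3 has 5 exons. Each is the first 30-base stretch with the most matches in that transcript, 5′ to 3′, with the motif in capitals. The transcripts are on another build than the peaks, so a match was not placed inside or outside a peak.
Malat1: atcaaagctactaGGACTgaagtaaaaagt
Neat1: gatggagacgggtGGACTgggggcccttga
Meg3: ccagttcctctcgGGACTcctggctccact
Kcnq1ot1: ctatcgGGACTagccattcgGGACTtctga
These stretches cover transcript bases 1097 to 1126 of Malat1, 334 to 363 of Neat1, 924 to 953 of Meg3 and 10138 to 10167 of Kcnq1ot1. GGACT occurred 9 times in the 6983 bases of Malat1 (1.29 per kb), 23 times in the 20771 bases of Neat1 (1.11 per kb) and 16 times in the 14548 bases of the longest Meg3 transcript (1.10 per kb). Kcnq1ot1 held 80 matches in 93092 bases, or 0.859 per kb. The median over 7502 long noncoding genes with a transcript of at least 1000 bases was 0.886 per kb, with quartiles of 0.484 and 1.44. All 4 RNAs were thus within the middle range, and 2.66% of 30-base stretches of long noncoding transcripts held the motif. The reverse complement, AGTCC, occurred 3, 11, 11 and 66 times in Malat1, Neat1, Meg3 and Kcnq1ot1. A match is a description of the letters and not of a methylated site.

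The 3 RNAs with peaks fell into 2 kinds. Malat1 and Meg3 gave tall peaks over a high input, with low fold enrichment, and Neat1 gave peaks of ordinary height over an ordinary input. Pileup is the number of IP tags over the peak summit. The median pileup of Malat1 peaks was 45, 48.5 and 44 tags in m6A IP 1, 2 and 3, a mean of 45.8 ± 2.36 (SD, n = 3). For Meg3 it was 47, 49 and 48 tags (48.0 ± 1.0), and for Neat1 17.5, 21 and 17 tags (18.5 ± 2.18). Over all peaks the median was 19, 21 and 19 tags. Malat1 and Meg3 stood above all peaks in each of the 3 libraries, by 26.2 ± 1.26 and 28.3 ± 0.577 tags. Most of their pileups lay close to the 50 tags that 1 strand can give after duplicate removal, so these SDs are not a measure of how reproducible the enrichment was. Neat1 differed from all peaks by a mean of -1.17 ± 1.04 tags, about the spread between replicates. Malat1 was below Meg3 in 3 of 3 libraries, by a mean of 2.17 tags (differences of -2.0, -0.5 and -4.0). The Malat1 values rest on 1, 2 and 1 peaks in m6A IP 1, 2 and 3. Of the 2 in m6A IP 2, 1 peak of 53 tags was called in that library alone.

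The threshold of 44 tags, the lowest pileup in Malat1 or Meg3, was chosen after their values were seen. It was reached by 6 of 8 peaks of the 4 RNAs in m6A IP 1, 13 of 15 in m6A IP 2 and 4 of 6 in m6A IP 3. Over the whole lists the shares were 3.38%, 4.27% and 2.47%. By this choice the 23 peaks were those of Malat1 and Meg3, and the 6 peaks of Neat1 lay at 16 to 23 tags.

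Fold enrichment is the authors' own value, the IP pileup over the local input background with 1 added to both, and it ran the other way. Median folds of Malat1 were 3.30, 2.83 and 1.96 in m6A IP 1, 2 and 3, a mean of 2.69 ± 0.682 (SD, n = 3). Meg3 had 2.15, 2.20 and 2.76 (2.37 ± 0.343), and Neat1 had 4.43, 4.92 and 2.86 (4.07 ± 1.07). All peaks had 4.78, 4.58 and 4.55. Malat1 and Meg3 were below all peaks in every library, by means of 1.94 ± 0.582 and 2.27 ± 0.435. Neat1 was below in 2 of 3 libraries, with a mean difference of -0.566 ± 1.03 that was within the spread. A fold of at least 4 was reached by 1 of 8 peaks in m6A IP 1, 3 of 15 in m6A IP 2 and 0 of 6 in m6A IP 3, against 66.2%, 63.2% and 62.4% of the whole lists. Of these 4 peaks, 3 were in Neat1 and 1 in Meg3.

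Each of these medians rests on few peaks of 1 transcript, and the library is the unit of replication. With 3 libraries an exact two-sided sign-flip permutation test cannot give a p below 0.25, so no difference could pass a threshold of 0.05. Of 6 differences in pileup, 5 reached p = 0.25 in this exact test (0.3 after Benjamini-Hochberg adjustment over the 6). Of 6 differences in fold, 4 reached p = 0.25 in the exact permutation test (adjusted 0.375). In polyadenylated whole-tissue RNA, fewer cells of a type and less RNA per cell cannot be told apart.

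**Figure D1:**
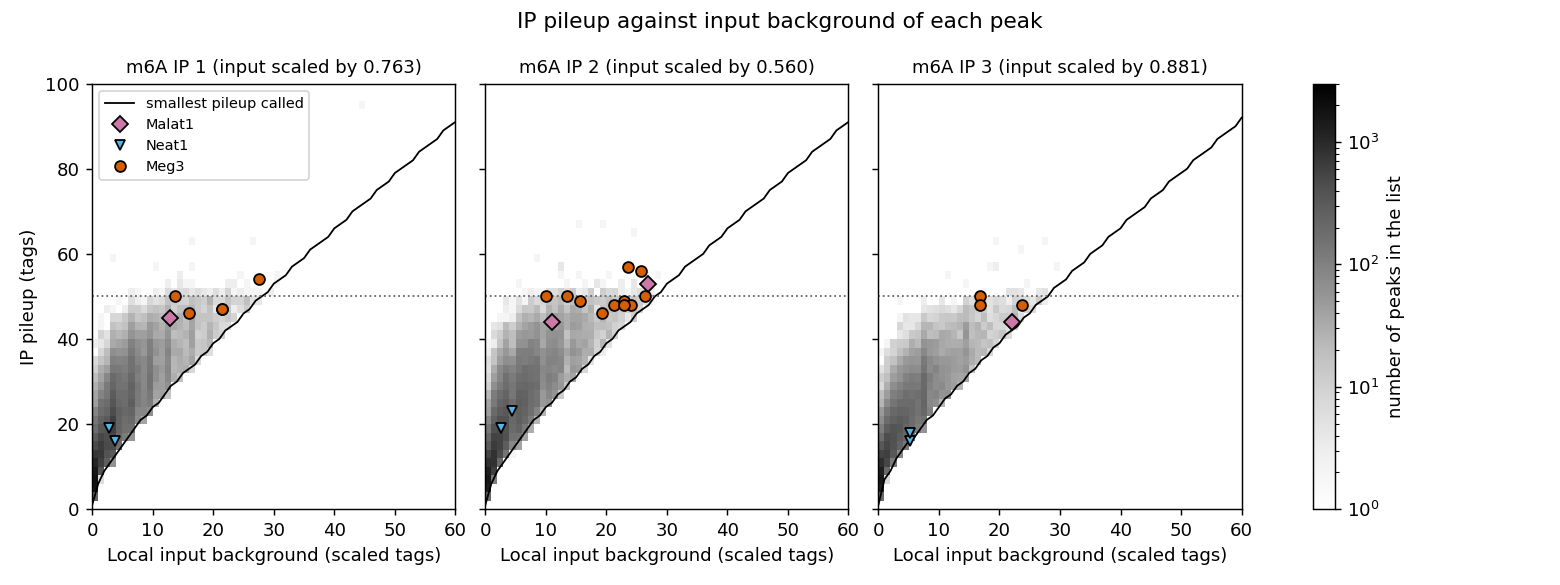
IP pileup (vertical axis, tags) against local input background (horizontal axis, scaled tags) in the 3 libraries. Grey shading counts all peaks of the list on a log scale, coloured points are the peaks of Malat1, Neat1 and Meg3, the black line is the smallest pileup that could be called at each background, and the dotted line marks 50 tags. Malat1 and Meg3 lie at backgrounds of 10.1 to 27.5 tags and pileups of 44 to 57, while Neat1 lies at backgrounds of 2.66 to 5.28 and pileups of 16 to 23. A pair of Meg3 peaks of m6A IP 1 share the point at 47 tags.

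The input level of each peak was recovered from its pileup and fold. The median background of Malat1 peaks was 12.9, 19 and 22.0 scaled tags in m6A IP 1, 2 and 3, that of Meg3 21.4, 23.0 and 16.7, and that of Neat1 3.28, 3.57 and 5.28. All peaks had 3.05, 3.36 and 3.13. The tags were 50 bases long and 1 was kept per position and strand, so 1 strand can give at most 50 tags at a base and a higher pileup needs both strands. Of the 23 peaks of Malat1 and Meg3, 19 had 44 to 50 tags and 4 had 53 to 57. The part of this limit in their height and fold was not tested. In the whole lists, the smallest called −log10 p was 4.05, 4.04 and 4.16, which fixes how tall a peak must be over a given background.

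Recurrence over the replicates was 5 of 16 regions found in all 3 lists, 3 in 2 lists and 8 in 1 list. That is 31.2% (Wilson 95% interval 14.2 to 55.6), against 38.6% of all regions. The interval covers counting error only. Regions of 1 transcript share their RNA level and library and 11 of the 16 were in Meg3, so it cannot serve as a test. The 2 shares are given as a description. The 5 recurrent regions were 1 in Malat1, 1 in Neat1 and 3 in Meg3. The count of Meg3 was 1 with lists cut to equal length and 5 without m6A IP 3, where both remaining libraries had to hold a peak. Those 5 were 45.5% of 11 Meg3 regions, against 57.8% of all regions without m6A IP 3. The count of Neat1 was 2 without m6A IP 3. Where peaks had to overlap reciprocally by 50%, Neat1 had 0 and Meg3 had 2. All 3 RNAs had 0 at a fold of at least 4 or a −log10 q of at least 10. These counts were fixed before merging, since 0 of 6 peaks of the 4 RNAs in m6A IP 3 reached either value. In the whole list of m6A IP 3 the shares were 62.4% and 15.3%.

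Called enrichment in Malat1 lay in the 5′ part of its window. GENCODE places the gene on the minus strand, so its 5′ edge is the high-coordinate end of the window. Region 1, at chr19:5802465-5802612, lay 388 to 535 bases inside that edge. The 3 libraries gave it pileups of 45, 44 and 44 tags (44.3 ± 0.577, SD, n = 3). A count of 44 has an exact Poisson 95% interval of 32.0 to 59.1. Since pileups of this height lie close to the 50 tags that 1 strand can give, their small spread is no sign of reproducible enrichment. The 3 summits, at 5802495, 5802496 and 5802479, lay within 17 bases, and 116 bases of the region were covered in every library.

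The fold of this Malat1 region was 3.30, 3.72 and 1.96 (2.99 ± 0.922). The library m6A IP 3 was the low one, and its background was 22.0 scaled tags against 12.9 and 11.1. In m6A IP 3 the peak stood 2 tags above the smallest pileup that could be called, and in m6A IP 1 and 2 it stood 17 and 18 tags above. The −log10 q was 8.41, 9.88 and 1.94. Region 2 of Malat1, at chr19:5801083-5801432, was found in m6A IP 2 alone and was the longest peak of the 4 RNAs, at 350 bases. Its pileup was 53 tags (exact Poisson 95% interval 39.7 to 69.3) over a background of 26.9, a fold of 1.94 that ranked at the 0.425 percentile of its list. The remaining 5583 bases of the window, toward the 3′ end, held no called peak in any library. The lists hold no coverage, so absent enrichment and an input too high for a call cannot be told apart there. A full 50 input tags scale to about 38, 28 and 44 tags in m6A IP 1, 2 and 3. At those backgrounds the smallest callable pileup was 63, 50 and 71 tags, and 1 strand gives at most 50. The part of this limit in the missing peaks was not tested.

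Neat1 peaks also lay in the 5′ part of its window, within 2367 bases of the 5′ edge on the minus strand. The other 19133 bases of the window, which include the part made as the long form alone, held no called peak in any library. The libraries were of polyadenylated RNA and the lists hold no coverage. Whether the long form was sequenced, or sequenced without enrichment, thus cannot be told apart. Region 1, at chr19:5845337-5845403, was called in m6A IP 1 and 2, with pileups of 16 and 19 tags and folds of 3.53 and 5.46. Region 2, at chr19:5843827-5844063, was called in all 3 libraries. Its pileup was 19, 23 and 18 tags (20.0 ± 2.65), a difference within the counting error of such numbers, since 18 tags has an exact Poisson interval of 10.7 to 28.4. The fold was 5.34, 4.38 and 3.02 (4.25 ± 1.16) over a background of 2.75, 4.48 and 5.28. The peak stood 8, 9 and 2 tags above the smallest pileup that could be called in m6A IP 1, 2 and 3. Its −log10 q was 7.21, 6.55 and 2.42, so the call in m6A IP 3 was near the limit.

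The peaks of Neat1 region 2 were 232, 155 and 52 bases long in m6A IP 1, 2 and 3. The summits of m6A IP 1 and 2 were 5843957 and 5843955, and that of m6A IP 3 was 5843850, so the region spanned 107 bases from summit to summit. The peak of m6A IP 3 covered part of the longer ones. Region 3, at chr19:5843633-5843721, was called in m6A IP 3 alone, 105 bases from region 2, with a pileup of 16 tags and a fold of 2.71. That pileup was the smallest that could be called at its background.

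**Figure D2:**
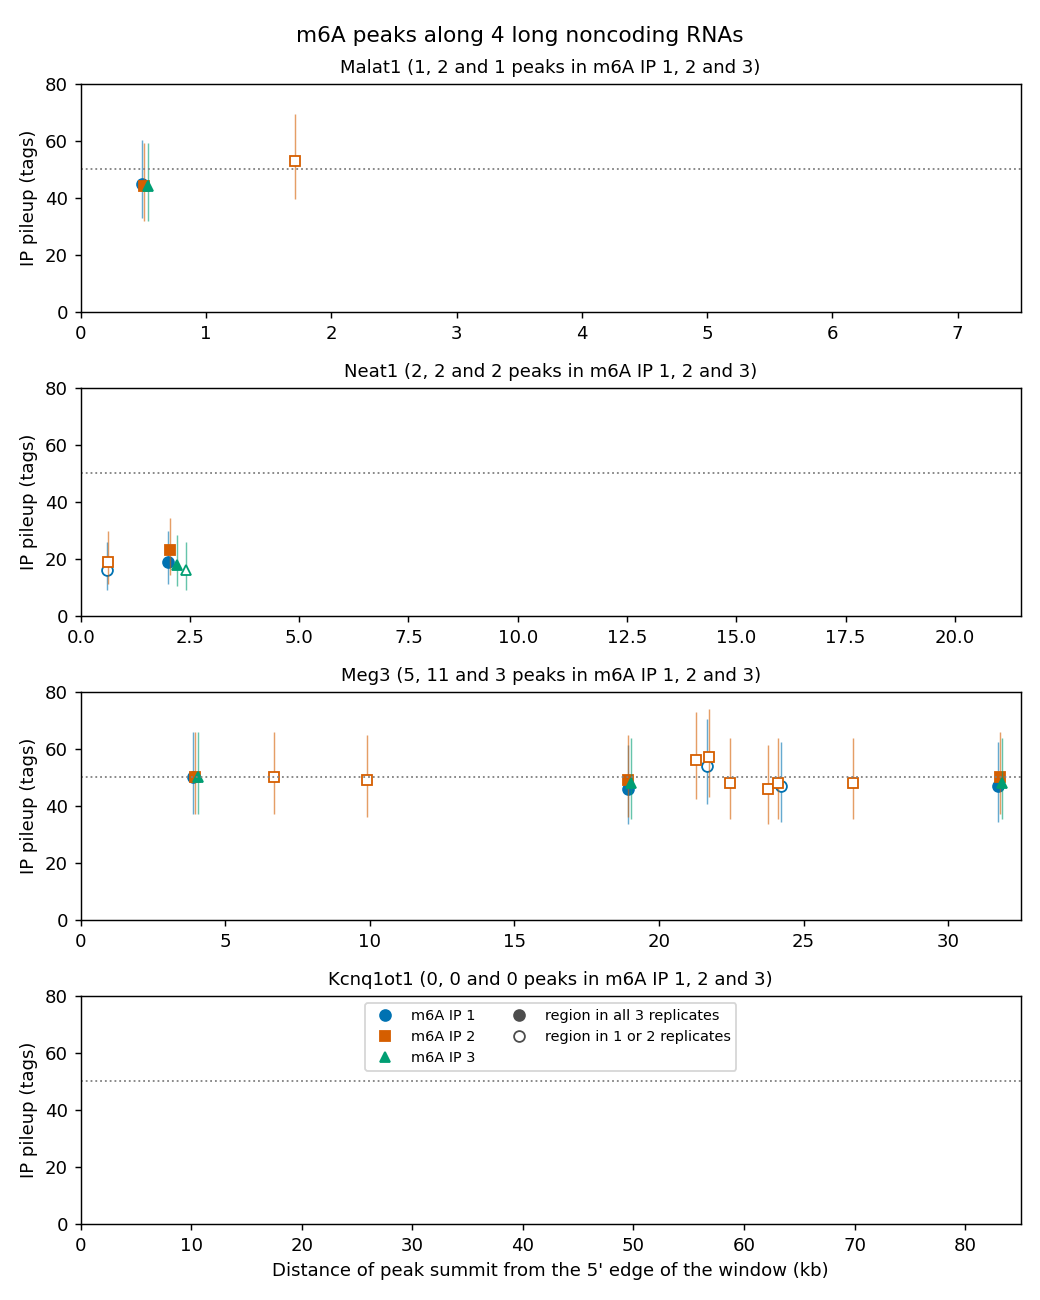
IP pileup (vertical axis, tags) of each peak against the distance of its summit from the 5′ edge of the window (horizontal axis, kb), with 95% exact Poisson intervals. Colours and shapes mark the 3 libraries, offset sideways by 0.25% of the window so that they can be told apart; filled symbols are regions found in all 3 replicates, and the dotted line marks 50 tags. Malat1 and Neat1 peaks lie within 1917 and 2367 bases of the 5′ edge, Meg3 peaks are spread over most of the window, and Kcnq1ot1 has 0 peaks.

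Meg3 carried the most peaks of the 4 RNAs, and their number differed between libraries. There were 5, 11 and 3 peaks in m6A IP 1, 2 and 3 (6.33 ± 4.16, SD, n = 3), covering 528, 1416 and 193 bases. They spread from 3920 to 31864 bases beyond the 5′ edge of its window on the plus strand, and 636 bases were left beyond the last. All 19 peaks had pileups of 46 to 57 tags. Folds ran from 1.87 to 4.60.

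The first Meg3 region, at chr12:110781920-110782011, had the closest summits of the 5 recurrent regions. Its pileup was exactly 50 tags in each library, the most that 1 strand can give, and the summits, at 110781960, 110781960 and 110781962, lay within 2 bases. The fold was 3.46, 4.60 and 2.88 (3.65 ± 0.877), over a background of 13.7, 10.1 and 16.7. Before scaling, the background came to 18, 18 and 19 input tags, nearly the same in the 3 inputs. The fold was highest in m6A IP 2, whose input was scaled by 0.560, and lowest in m6A IP 3, scaled by 0.881. As the pileup was the same in each library, the fold by its definition differed through the scaled background alone. Its −log10 q was 10.1, 14.9 and 7.07.

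Region 11, the last along Meg3 at chr12:110809638-110809864, also recurred. Its pileup was 47, 50 and 48 tags (48.3 ± 1.53) and its fold 2.15, 3.53 and 2.76 (2.81 ± 0.694), with summits within 25 bases. Here the background before scaling was 28, 24 and 19 input tags. Region 4, at chr12:110796875-110797065, was found in all 3 lists by way of 1 long peak. The peaks of m6A IP 1 and 3, of 63 bases each, did not overlap each other, and both overlapped the 191-base peak of m6A IP 2. Its pileup was 46, 49 and 48 tags (47.7 ± 1.53) and its fold 2.76, 2.09 and 1.98 (2.27 ± 0.424).

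A −log10 q of at least 10 was reached by 3 peaks of the 4 RNAs, and all were in Meg3 regions 1 and 11. These were 1 of 8 peaks in m6A IP 1, 2 of 15 in m6A IP 2 and 0 of 6 in m6A IP 3, against 22.8%, 22.0% and 15.3% of the whole lists.

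**Figure D3:**
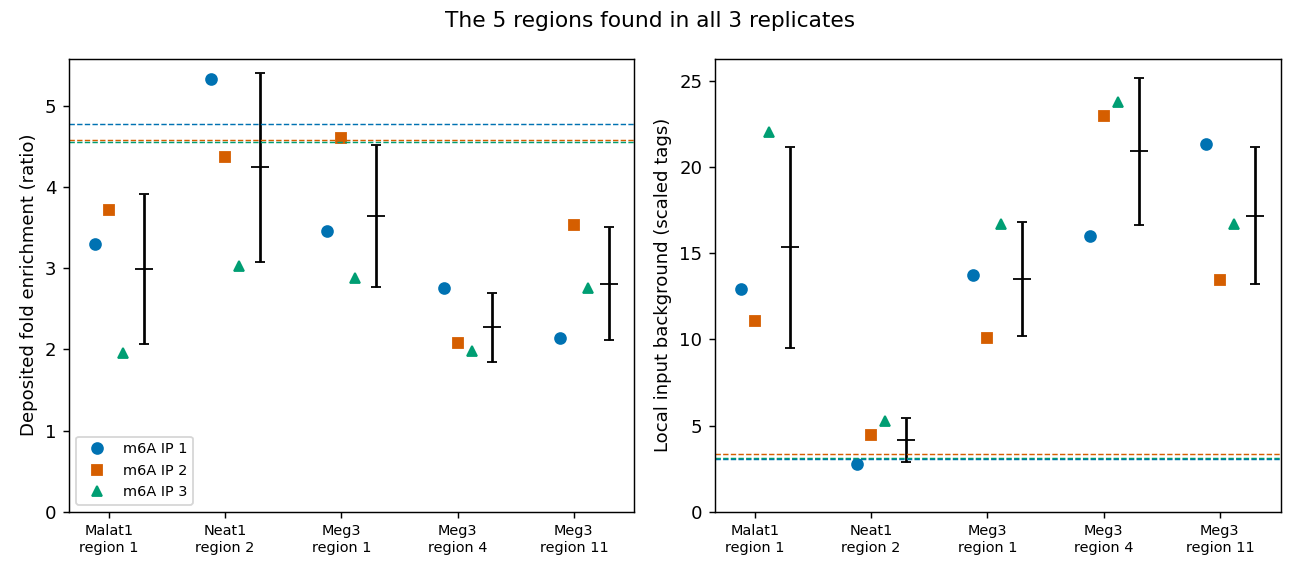
Deposited fold enrichment (left panel, ratio) and local input background (right panel, scaled tags) of the 5 regions found in all 3 replicates, numbered from the 5′ end. Coloured points are the libraries, black bars the mean ± SD of 3, and dashed lines the median of all peaks of each list. The background of Malat1 and Meg3 regions lies between 10.1 and 23.8 tags, far above the medians of 3.05 to 3.36, and their folds reach at most 4.60.

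Meg3 regions 6 and 9 were called in m6A IP 1 and 2. Region 6, at chr12:110799677-110799850, had the highest Meg3 pileup within each of these libraries, 54 and 57 tags, with folds of 1.93 and 2.36. Region 9, at chr12:110802076-110802322, was the longest merged region of Meg3, at 247 bases, with pileups of 47 and 48 tags and folds of 2.15 and 2.20. Its 2 summits were 185 bases apart.

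The other 6 regions of Meg3 were called in m6A IP 2 alone. Region 2 (chr12:110784614-110784707) had 50 tags and a fold of 1.87, the lowest of the 29 peaks. Region 3 (chr12:110787877-110787976) had 49 tags and a fold of 3.0, the highest of these 6. Region 5 (chr12:110799250-110799317) had 56 tags at a fold of 2.13, and region 7 (chr12:110800401-110800450) had 48 tags at 1.95. Region 8 (chr12:110801757-110801877) had 46 tags at 2.32, and region 10 (chr12:110804686-110804739) had 48 tags at 2.04. They stood 2 to 17 tags above the smallest pileup that could be called at their background. Regions 5 to 10 lay close together, from 21250 to 26739 bases beyond the 5′ edge, and the longest stretch of Meg3 between neighbouring regions was the 8898 bases between regions 3 and 4.

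The single-library regions of Malat1 and Meg3, 7 in all, came from m6A IP 2, the library with the smallest input scaling factor. At a full 50 input tags the scaled background would be 38.2, 28.0 and 44 tags in m6A IP 1, 2 and 3. The same imbalance was seen in the whole lists at this height. Of 1628 regions with a highest pileup of at least 44 tags, 240 were found in 1 library, and m6A IP 2 gave 235 of their peaks, m6A IP 1 gave 5 and m6A IP 3 gave 0. At any height, single-library peaks numbered 6860, 6809 and 3162 in m6A IP 1, 2 and 3. Of the 272 tall regions found in 2 libraries, 270 were shared by m6A IP 1 and 2. The part of input scaling and depth in the peak number of Meg3 was not tested. Without m6A IP 2, Meg3 held 8 peaks in 6 regions, 2 of them in both remaining libraries, and Malat1 held 1 region, found in both. Over the whole lists without m6A IP 2, 49.8% of regions were in both.

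The recurrence of all regions of at least 44 tags was set beside that of Malat1 and Meg3. Of their 13 regions, all of which reached 44 tags, 4 were found in all 3 libraries, 30.8% (Wilson 95% interval 12.7 to 57.6). Of the 1628 regions of that height in the lists, 1116 were, or 68.6% (66.3 to 70.8). Regions of 1 transcript share their RNA level and library and 11 of the 13 were in Meg3, so the intervals cannot serve as a test. The cut of 44 tags came from these same members. The 1628 regions include the 13 and were not matched for input background. They were picked by the highest pileup over libraries, so a region called in more libraries had more chances to enter. The shares are given as a description without a test.

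Kcnq1ot1 had 0 peaks in each of the 3 lists over a window of 85001 bases. The lists hold called peaks and no coverage, so whether the RNA was sequenced, or sequenced without enrichment, cannot be told apart. The nearest peaks in any list ended 36201 bases below the window and began 162082 bases above it. The 50000 bases on each side held 1 region, at chr7:150361564-150361799, with a pileup of 5 tags in every library and folds of 5.04, 5.11 and 4.75.

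Regions were denser inside the 3 windows with peaks than around them, a choice of windows that itself favours a higher density inside. Kcnq1ot1 went the other way, with 0 regions per 10 kb inside its window and 0.1 around it. The Meg3 window held 3.38 regions per 10 kb, and the 50000 bases on each side held 0.30. Malat1 had 2.67 and its surroundings 0.764, and Neat1 had 1.40 against 0.757. Of 16 regions in the surroundings of the 4 windows, 8 were found in all 3 replicates (50%). Peaks around Meg3 reached median pileups of 12, 13 and 8 tags in the 3 libraries, below every peak inside its window. The windows were drawn around transcribed RNA and the surroundings were not, so these densities are a description.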

How the data were processed

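The data were 3 peak lists, 1 per m6A IP library against its input. TopHat2 2.1.0, MACS2 2.1.0 and the mm9 build are named per the submitters' processing notes. Per the file headers, MACS 2.1.0.20151222 used a q cutoff of 0.05, 50-base tags, at most 1 tag per position and local background over 1000 and 10000 bases. The deposited pileup is a coverage signal in IP tags. The deposited fold is a ratio, and the deposited strength of a peak is its −log10 q-value beside a −log10 p-value. The settings of the alignment, beyond tool and build, are not given in the sources used.

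Groups and numbers came from sample titles. Nothing says that replicates came from separate animals, so SDs may be technical. Background was (pileup + 1) / fold − 1, and a Poisson p from it differed from the deposited −log10 p by at most 6.71e-05. The smallest callable pileup came from the same formula. All regions of the 3 RNAs with peaks are given, by a rule for RNAs with under 5 recurrent regions. Members and lists were chosen with earlier results of these data known. Merging was tested on simulated data. Strand came from GENCODE, and no coordinate of its build was compared with mm9. Peak sequences are not given because no mm9 genome was used. Alternatives changed the thresholds, overlap, window and replicates. Software was scipy 1.17.1, statsmodels 0.14.6, pandas 2.3.3 and numpy 2.4.6 under Python 3.11.15, with matplotlib 3.10.9 for plots.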

Additional observations from a re-analysis of the deposited data

How the results depend on the processing

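Of 86 values recomputed under an alternative, 69 moved by less than the spread between replicates or, for counts, by at most 1.5 times. The 69 include the counts of Kcnq1ot1, which most alternatives could not move from 0. Malat1, Neat1 and Meg3 had 0 regions found in all 3 replicates at a fold of at least 4. The same held at a −log10 q of at least 10. In m6A IP 3, 0 of 6 peaks of the 4 RNAs passed either rule, so these counts were fixed in advance. At the fold rule Meg3 kept 1 peak, of region 1 in m6A IP 2, with 50 tags and a fold of 4.60. At the −log10 q rule it kept 3 peaks, all in m6A IP 1 and 2. These had a median pileup of 50 tags and a median fold of 3.76, each averaged over those libraries. A cut on fold keeps high folds by its own choice. With a reciprocal overlap of at least 50%, Neat1 had 0 regions found in all 3 replicates and Meg3 had 2. When 2 replicates were enough, Neat1 had 2 and Meg3 5. With lists cut to equal length, an alternative chosen after seeing the data, Meg3 had 1 such region and a median fold of 2.85. Leaving out each replicate in turn gave 1 to 2 regions in Neat1 and 2 to 5 in Meg3, the highest without m6A IP 3. The share of all regions in both remaining libraries was also highest there, at 57.8%. It was 49.6% without m6A IP 1 and 49.8% without m6A IP 2. Kcnq1ot1 had 0 regions under every alternative run. No count or median moved when any base counted in place of the summit, or when windows were widened by 1000 bases. No paired analysis was possible because input levels could be recovered at called peaks alone and were not compared with IP levels by a test of their own, and differences between RNAs were already taken within each library. The depth behind Neat1 peaks was 16 to 23 tags, and the effect of duplicate removal on tall peaks was not tested.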

Other observations

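Some recurrent regions lay just outside the windows and belong to none of the 4 RNAs by the rule. The peaks in the 50000 bases on each side of Meg3 had a median fold of 6.53, 4.24 and 3.92 in m6A IP 1, 2 and 3, over backgrounds of 0.992, 1.60 and 1.33 tags. The region nearest to Neat1, at chr19:5852182-5852623 and 6182 bases beyond its 5′ edge, was found in all 3 libraries with pileups of 29, 29 and 24 tags. A second one, at chr19:5856631-5856752, had pileups of 22, 22 and 18 tags and folds of 9.10, 3.48 and 6.88 in m6A IP 1, 2 and 3. Beyond the 3′ edge of Meg3, a region at chr12:110814671-110815003 had 11, 13 and 9 tags. The genes at these positions are not given here.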
